A study of Mus musculus with 4 samples.

Results

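The cells described here come from libraries of mouse intestine and were those in which the glucagon gene, Gcg, led 6 hormone genes. They were chosen cell by cell from the counts of 3 single-cell libraries. A cell was a member when Gcg held the most UMIs (unique molecular identifiers, 1 per RNA molecule captured) among Sst, Gip, Ghrl, Gcg, Nts and Cck, when Gcg made up at least 2% of its UMIs, and when Ins1 and Ins2 together stayed below 1%. Cells entered only if 500 or more genes were detected and mitochondrial UMIs did not exceed 20%. The rule was met by 124 of 11574 cells, which are called Gcg-dominant below: 86 of 4602 at embryonic day 17.5 (E17.5), 11 of 3788 in the adult and 27 of 3184 in the irradiated adult. Sct and Pyy are not among the 6 genes of the rule and exceeded Gcg in 10 of the 86 E17.5 members. By the markers described below, 22 of the 86 leaned more to a pancreatic alpha cell profile than to a gut one. That number was 10 when the gene Slc38a5, found in 65 of the 86, was left out of the markers.

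All libraries came from mice of the genotype Bmi1-GFP, in which green fluorescent protein reports the Bmi1 locus, and the animals that were not irradiated carry the same reporter. Epithelial cells were dissociated from intestine, the small intestine in the case of E17.5, sorted by flow cytometry and profiled by droplet sequencing of RNA 3′ ends. The groups were embryos at E12.5 and at E17.5, adults, and adults that had been irradiated, with 1 library each and 15800 cells that passed the limits. The dose and interval of irradiation, the sorting gates, and how many animals of which age and sex were used are not given in the sources used here. Since each group is 1 library, no difference has a replicate check, nothing was tested, and every interval below covers counting error within these libraries only.

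Enteroendocrine cells are the scattered hormone-secreting cells of the gut epithelium. Those that transcribe Gcg are classically called L cells. Their proglucagon is cut by the convertase Pcsk1 into the glucagon-like peptides, which act on insulin secretion, appetite and mucosal growth. Many L cells also make peptide YY (Pyy), which slows gut transit and curbs appetite. Alpha cells of the pancreatic islet transcribe the same gene, but cut the product with Pcsk2 into glucagon. In mm10 coordinates Gcg lies on the minus strand of chromosome 2, from 62474530 to 62483650, and Pyy on the minus strand of chromosome 11, from 102106676 to 102107832.

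The values that chose the cells are a description and support nothing. Gcg took 2.63% of a cell's UMIs at the lowest, 9.94% at the median and 28.7% at the highest at E17.5. In the adult the same values were 3.23%, 9.76% and 21.9%, and in the irradiated adult 4.02%, 10.6% and 18.9%. The nearest Gcg-led cells below the limit had 1.99%, 1.12% and 0.850% in that order of libraries, and 11, 2 and 0 Gcg-led cells lay between 1% and 2%.

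Gcg-dominant cells made up 1.87% of cells at E17.5 (exact Clopper-Pearson 95% interval 1.50 to 2.30%), 0.290% in the adult library (0.145 to 0.519%) and 0.848% after irradiation (0.560 to 1.23%). Of the cells led by any of the 6 hormone genes at that limit, they were 8.57% of 1004, 0.691% of 1592 and 1.75% of 1544. The sorting gate can set such shares, and its part was not tested. Gcg RNA was not confined to them. They held 73.6%, 39.3% and 27.5% of all Gcg UMIs, and cells led by Cck with at least 2% Gcg numbered 32, 21 and 87.

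Median depth was 9543 UMIs per member at E17.5, 14606 per adult member and 14070 per irradiated member. The adult cells ranged most widely, from 3465 to 51443. Any 2 libraries shared 6 to 12 cell barcodes, and no shared barcode was a member in both. Chgb, the granin chromogranin B, had a UMI in 86 of 86, 11 of 11 and 27 of 27 members. Marker lists of other lineages differed in level. The 8 Paneth genes together reached 88.6, 1283 and 1939 CPM (counts per 1000000 UMIs) in members (E17.5, adult and irradiated adult in turn), against 236, 100836 and 181924 CPM in the other cells. The 7 goblet genes were higher in members than in other cells at E17.5 (3573 against 1364 CPM, of which Tff3, a trefoil peptide, gave 2879 in members) and lower in the adult (911 against 4628) and after irradiation (4523 against 29076). The 7 enterocyte genes were at 1211, 1249 and 1310 CPM, against 6759, 9181 and 3467. The 5 mesenchyme genes were at 704, 19.6 and 317 CPM, against 554, 24.2 and 234. The part of these lists in the results below was not tested. The 8 tuft genes reached 2.11, 34.3 and 188 CPM, and of 5 immune genes all 5 had no UMI in the adult members and 4 had none in the other members. The median mitochondrial share was 2.48%, 7.03% and 3.88%, and its part in the differences below was not tested. The reporter transcript eGFP had 2, 0 and 10 UMIs in all members together, and Bmi1 itself 11, 1 and 3.

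Pyy, the usual companion hormone of Gcg, differed between the libraries. It summed to 21313 CPM at E17.5 (exact Poisson 95% interval 21020 to 21609), 563 CPM in adult members (465 to 676) and 9069 CPM in irradiated adult members (8768 to 9378). Counted by cell, Pyy had a UMI in 83 of 86, 7 of 11 and 22 of 27 members, and it reached 1% of UMIs in 46, 0 and 12 of them. As a percentage of a cell's UMIs its median was 1.14% for E17.5 members, 0.0257% for adult and 0.924% for irradiated members. The highest adult cell had 0.426%, and 69 of the 86 E17.5 cells and 17 of the 27 irradiated cells lay above it. The adult group thus lay at the low end of both others, although 5 irradiated cells had no Pyy UMI and the groups overlapped. A single adult cell supplied 56.5% of the adult Pyy UMIs.

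After every cell was thinned to 2000 UMIs, Pyy was detected in 91.9% of 86 members at E17.5, 45.5% of 11 in the adult and 76.0% of 25 in the irradiated adult. In cells that should lack Pyy the thinned shares were 2.9% of enterocyte-marked cells at E17.5 (median 22903 UMIs), 3.1% of tuft-marked cells in the adult (4301 UMIs) and 5.2% in the irradiated adult (8454 UMIs). Even the adult share was above this background. In the same libraries Cck-dominant cells, chosen by the same rule for Cck, had Pyy in 36.1%, 18.7% and 25.4% of thinned cells.

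Most members carried further peptide genes. Cck, which encodes cholecystokinin, a signal for gallbladder contraction and satiety, had a UMI in 81 of 86 E17.5 members, all 11 adult and all 27 irradiated members, at 20235, 37351 and 87776 CPM. Ghrl, the ghrelin gene, was at 12207, 26125 and 35191 CPM, in 67 of 86, 10 of 11 and 26 of 27 cells. The rule holds both genes below Gcg in each member but sets no lower limit. Since 3′ UMIs count molecules without regard to transcript length, genes can be ranked within a cell. The highest peptide gene other than Gcg was Cck in 8 of 11 adult and 25 of 27 irradiated members, and Ghrl in the rest of them. At E17.5 it was Sct in 30, Pyy in 23, Cck in 20, Ghrl in 11 and Nts in 2, and in 7 of the Sct-led and 3 of the Pyy-led cells it exceeded Gcg.

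Sct, which encodes secretin, a stimulus of pancreatic bicarbonate, was another E17.5 gene of these cells, at 27705 CPM against 4614 for adult members and 5027 for irradiated ones. In the adult libraries its level in cells without a dominant hormone was as high or higher (7863 and 5142 CPM). Members of both adult libraries therefore did not stand above those cells in Sct. Those cells also held Chgb and Chga RNA, as given below, so they are not free of endocrine RNA. What part of the adult Sct in members is free RNA was not tested. Nts (neurotensin) was at 2657, 19.6 and 114 CPM, and the adult values again lay below those of cells without a dominant hormone (108 and 170 CPM). Insl5, a hormone of distal L cells, was seen in 24 of 86 members at E17.5 at 311 CPM, of which 1 cell gave 50.2%, and was at 24.5 and 13.2 CPM in the adult libraries. Counting Pyy, Cck, Sct and 10 further peptide genes, members had a median of 3 peptides other than Gcg at 1% of UMIs or more at E17.5, and of 2 in both adult libraries. The other peptides took a median of 9.84%, 8.03% and 12.9% of a cell's UMIs.

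**Figure D1:**
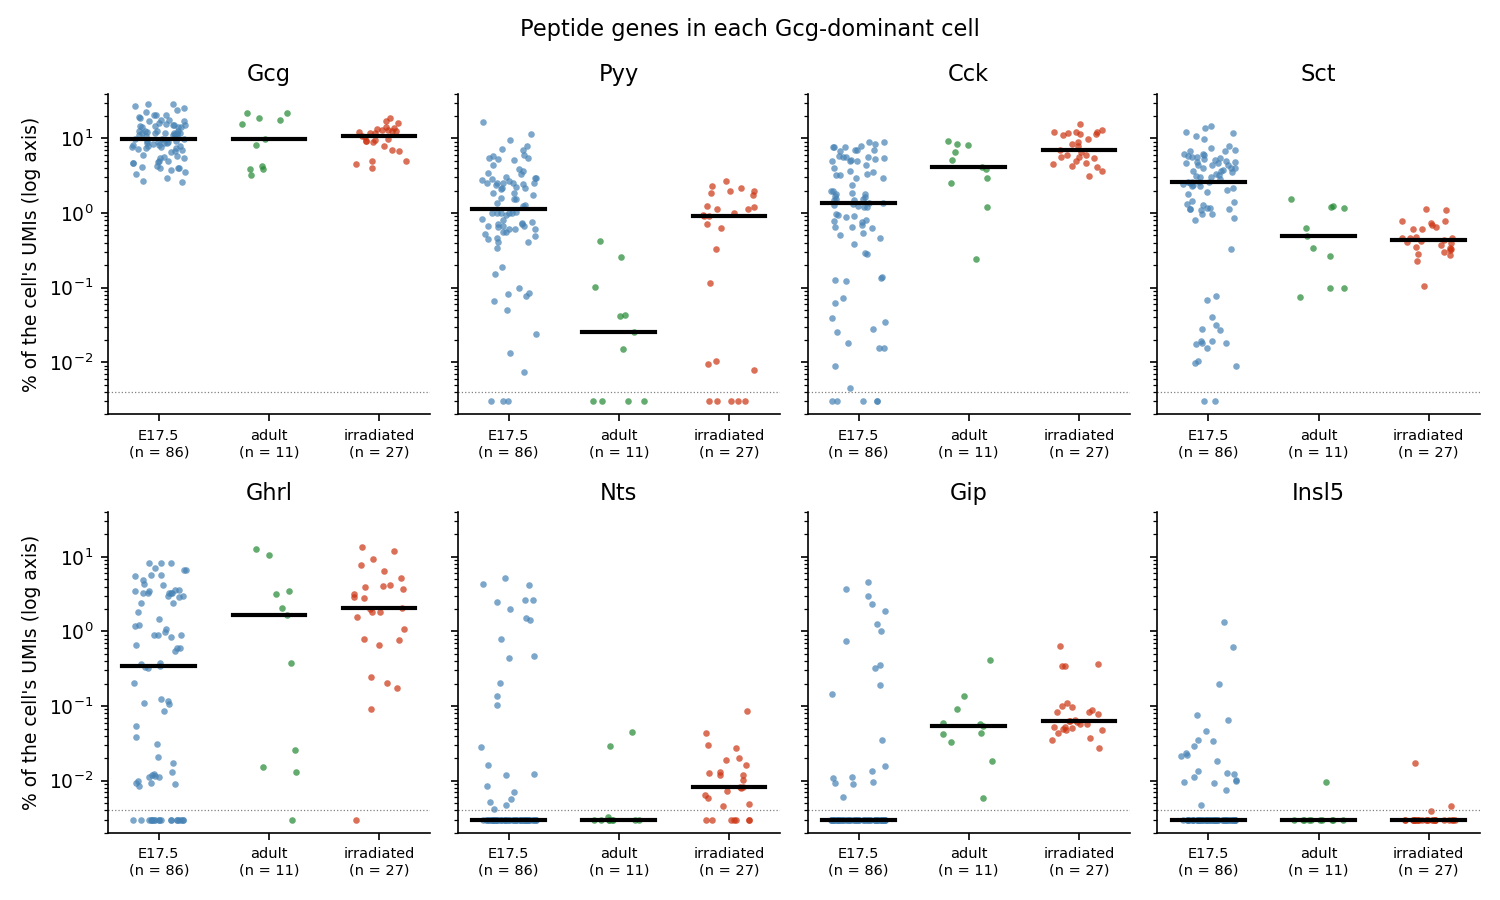
Share of a cell's UMIs (percent, log axis) for 8 peptide genes in each Gcg-dominant cell of the E17.5, adult and irradiated adult libraries; each point is 1 cell, spread sideways at random, the black line is the median, and points under the dotted line have no UMI. The adult Pyy points stay at or below 0.426%, while 17 of 27 irradiated and 69 of 86 E17.5 points lie above that value.

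The machinery that turns a prohormone into a secreted peptide was present in all 3 libraries. Pcsk1, the convertase of L cells, was at 228 CPM at E17.5, 304 for adult and 452 for irradiated members, with a UMI in 71 of 86, 10 of 11 and 25 of 27 members. Pcsk2, the alpha cell convertase, was at 308 CPM at E17.5, where 16 of 86 cells had it. It had no UMI in either adult library, which allows up to 14.7 CPM in adult members and 7.93 in irradiated members at 3 counts. Cpe, the carboxypeptidase that trims the cut peptides, was at 1272, 926 and 2597 CPM, against 80.3, 136 and 258 in cells without a dominant hormone. Secretogranin Scg2 was at 1308, 1935 and 3949 CPM and at 52.3, 66.0 and 91.8 in those other cells. Chgb and Chga are different: in the adult and the irradiated adult, cells without a dominant hormone held 7208 and 14273 CPM of Chgb and 2764 and 5988 of Chga, against 4477 and 23945 and 333 and 2203 CPM in members.

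Among transcription factors, Etv1 stood out against the rest of each library. It was at 442, 583 and 721 CPM in members and at 11.0, 11.6 and 12.2 CPM in cells without a dominant hormone. In thinned cells Etv1 was detected in 57.0%, 72.7% and 76.0% of members, against 0.5%, 0.7% and 1.0% of the background cells named above. Isl1, which acts in many hormone cell types, was at 483, 730 and 433 CPM, and Pax6, a regulator of the glucagon gene, at 220, 162 and 230. Neurog3, which starts the endocrine program in progenitors, had no UMI at E17.5 or in the adult and was at 2.64 CPM in the irradiated adult.

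L cells sense the gut contents through receptors. Ffar1, a receptor for long-chain fatty acids, had a UMI in 59 of 86, 11 of 11 and 24 of 27 members, at 127, 167 and 330 CPM. Gpr119, a receptor for lipid amides, had one in 43 of 86, 7 of 11 and 20 of 27, at 65.4, 68.6 and 89.8 CPM. Cells without a dominant hormone had at most 7.03 CPM of Ffar1 and 0.939 of Gpr119, so members stood far above those cells for both. For Ffar2, a receptor for short-chain fatty acids, the adult libraries showed no such gap. It was at 117, 127 and 151 CPM in members compared with 37.2, 108 and 183 in those cells. Free RNA itself was not measured. Galr1, the galanin receptor, was at 28.5, 19.6 and 52.8 CPM. Casr, Gpr142, Slc2a2, Lpar5 and Agtr1a were at or near 0.

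Pancreatic genes were present in the E17.5 library: its other cells had 11930 CPM of 7 acinar genes, against 277 in the members. To see whether some members carried an alpha cell profile, the 86 cells were divided by the UMIs of 4 gut identity genes (Cdx1, Cdx2, Cdh17 and Lgals4) and 4 alpha cell genes (Irx1, Irx2, Gc and Slc38a5). A cell was called gut-marked or alpha-marked for the larger sum, which had to reach 2 UMIs. This gave 63 gut-marked cells, 22 alpha-marked cells and 1 cell that was neither. Such a division is a range and not a cell type. The median depths were alike, 9418 and 9781 UMIs. In the adult all 11 members were gut-marked, and in the irradiated adult 26 of 27, with none alpha-marked. All 4 alpha cell genes had no UMI in the members of both adult libraries.

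Genes outside both lists followed the division. Of 3522 genes with at least 30 UMIs in either set, 3.95% were at least 2-fold higher in alpha-marked cells and 15% at least 2-fold lower, on the scale log2((CPM + 1)/(CPM + 1)). Of the 8 further alpha cell genes, 5 reached 30 UMIs and all 5 were among those at least 2-fold higher, with a median of 3.53 against -0.15 for all genes tested. Pcsk2 was at 1376 CPM in alpha-marked cells (267 UMIs) and had 9 UMIs in gut-marked cells, and was seen in 14 of 22 and 1 of 63. Ttr, a carrier of thyroid hormone made by alpha cells, was at 7071 and 1146 CPM. Slc30a8, the zinc transporter of islet granules, was at 170 and 1.34 CPM. The islet peptide genes Iapp and Ppy were higher too, at 4984 against 213 and 1943 against 403 CPM, and Gast, the gastrin gene of the fetal islet, at 938 against 5.35. Ppy rests on few cells on both sides. Only 2 of the 86 members had 1% or more of it, 1 alpha-marked (2.56%) and 1 gut-marked (1.29%). The latter gave 290 of the 301 gut-marked UMIs, and whether the Ppy difference holds without these 2 cells was not tested.

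Other genes were on the gut side. Nts was at 3369 CPM in gut-marked and 5.15 in alpha-marked cells, and Insl5 at 391 and 15.5. Fabp2, the intestinal fatty acid binding protein, was at 696 and 72.2 CPM. Agr2, which folds mucins, was at 625 and 36.1, and S100g, a calcium binding protein of enterocytes, was at least 9.43-fold lower in alpha-marked cells, where it had no UMI. Sct had a cell median of 32065 CPM in gut-marked cells and 293 in alpha-marked cells, and Cck of 15612 and 365. Pyy, Etv1 and Pcsk1 differed by less than 2-fold between the sets. Pyy was at 20915 CPM in gut-marked and 21718 in alpha-marked cells, Etv1 at 429 and 505, and Pcsk1 at 239 and 170.

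**Figure D2:**
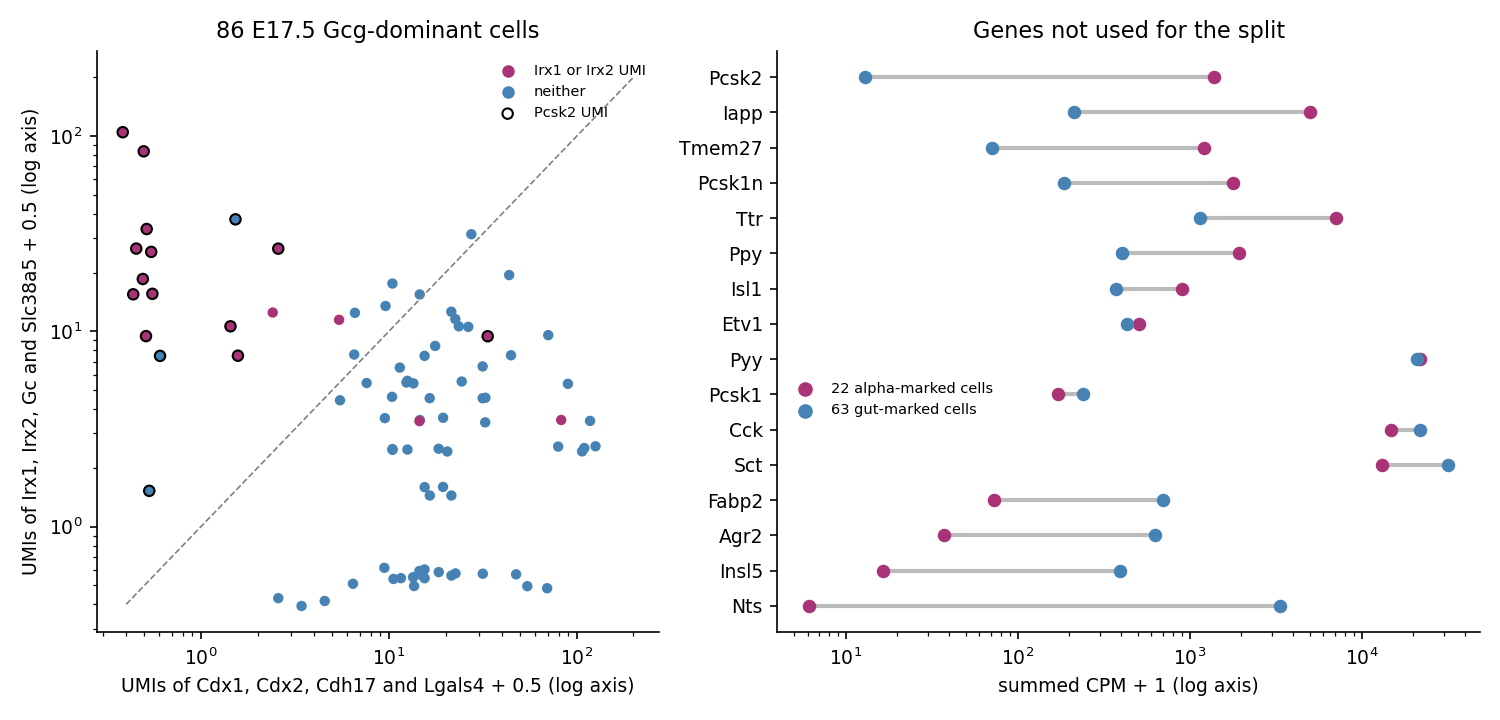
Left, UMIs of the 4 gut identity genes (x) and the 4 alpha cell genes (y) in each of the 86 E17.5 Gcg-dominant cells, both plus 0.5 on log axes with a small random spread, the dashed line marking equality; 13 of the 17 cells with an Irx1 or Irx2 UMI (purple) also had Pcsk2 (ringed). Right, summed CPM plus 1 (log axis) of genes not used for the division; Pcsk2 is far to the right in the 22 alpha-marked cells (1376 CPM) and Pyy is level.

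The alpha-marked set depended on Slc38a5, an amino acid transporter. It had a UMI in 65 of the 86 members, 48 of them among the 69 without Irx1 or Irx2. Without Slc38a5 in the list, 10 cells were alpha-marked and 71 gut-marked. Of the 22 alpha-marked cells, 14 had an Irx1 or Irx2 UMI. Taken by Irx1 or Irx2 alone, 17 cells had a UMI and 69 did not. Pcsk2 was in 13 of the 17 and 3 of the 69. Cck reached 1% of UMIs in 1 of the 17 and 48 of the 69, Sct in 3 and 61, and Ghrl in 2 and 29. For Pyy the counts were 9 of 17 and 37 of 69, so it was common on both sides. In sum the 17 cells had 35392 CPM of Pyy and the 69 had 17918, but the cell medians were 10070 and 12531 CPM. In 1 of the 17, Pyy made up 16.6% of the cell's UMIs. Pcsk1 was lower in the 17, at 97.7 CPM in 9 of them against 259 CPM in 62 of the 69.

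Within E17.5, Insl5 and Nts marked overlapping smaller sets. The 24 members with an Insl5 UMI had no Pcsk2, against 456 CPM in the other 62. Summed Gip (3906 against 678 CPM) and Fabp2 (1120 against 295) were higher in the 24. Gip was seen in only 8 of the 24 and 13 of the 62. Fabp2 was seen in 19 and 36, but the highest gut-marked cell had 12441 CPM, where the median of such cells was 169. Whether these sums hold without the highest cells was not tested. Hoxb6, a gene of the distal gut, was at 22.7 CPM in the 24 against 4.69. Osr2, another distal gene, was at 61.7 against 29.7, and both rest on few UMIs. The 25 members with an Nts UMI had more Hoxb8 (68.2 against 21.4 CPM) and Sct (42087 against 21261), and less Pdx1 (10.2 against 38.2), a factor of the duodenum and pancreas. Insl5 was at 859 against 65.7 CPM, but 210 of its 252 UMIs in the first set came from 2 cells, and it was detected in 8 of 25 and 16 of 61 cells. These sets were chosen from the same cells and their differences are a description.

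Setting the adult beside E17.5 asks how the same hormone class differs between fetal and mature gut. The members held 204169 UMIs in the adult and 947960 at E17.5. Among 4262 genes that reached 30 UMIs in either library, 168 (3.94%) were at least 2-fold higher in the adult and 607 (14.2%) at least 2-fold lower, with a median of -0.15. When mitochondrial, ribosomal protein and the 6 hormone genes were left out of the totals, 35.1% of the genes past 2-fold were higher, against 21.7% here. The limit is lopsided: a gene at equal level with 30 UMIs at E17.5 has 6.46 in the adult. Among fetal growth genes, 7 of 9 measured were at least 2-fold lower in the adult and none higher, with a median of -5.53, or -2.03 with genes at 0 set to 3 counts. The imprinted RNAs Meg3 and H19 had no adult UMI and were at least 51.5-fold and 19.7-fold lower, from 757 and 290 CPM. Mdk, a growth factor of embryos, and Nnat, an imprinted gene of endocrine tissue, were at least 20.1-fold and 23.3-fold lower.

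Of the 8 peptide genes that the rule did not use, 7 were measured and all 7 were at least 2-fold lower in the adult. Pyy was lower by a log2 difference of -5.24 (interval -5.52 to -4.98), against -3.64 in other hormone-dominant cells and -3.00 in cells without a dominant hormone. Iapp was lower by -7.67, Ppy at least 48.9-fold and Pcsk2 at least 21.0-fold; all 3 were higher in the alpha-marked E17.5 cells. Against gut-marked E17.5 cells alone Iapp was at -5.18, but 1 of those cells had 6155 CPM of Iapp where their median was 0. The same cell gave 290 of the 301 Ppy UMIs of the gut-marked cells, and it had 2 UMIs of Irx2. Whether the Iapp difference holds without that cell was not tested. Against gut-marked E17.5 cells alone, 140 of 3523 genes (3.97%) were at least 2-fold higher in the adult and 456 (12.9%) lower, and 6 of 6 measured peptide genes outside the rule were lower. Without the alpha-marked cells Pcsk1n, an inhibitor of Pcsk1, turned from lower to 0.075, and Tmem27 to 0.69. Slc38a5 (at least 48.3-fold lower) and Bex4 (at least 21.8-fold lower) complete the 10 lowest genes.

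The genes highest in the adult were of other kinds. Pigr, which carries antibodies across the epithelium, had 136 UMIs in 6 of 11 adult members and none at E17.5, at least 210-fold higher. All but 7 of the 136 came from 3 deep adult cells with at least 10 UMIs of cell cycle genes, without which Pigr was at 89.5 CPM in place of 666. Psmb9, an immunoproteasome subunit, and Lgals9, a galectin, were higher by 3.91 and 3.86, with 4 of 32 and 5 of 31 UMIs outside the same 3 cells. The interferon and antigen presentation list had 2 of 5 higher and none lower, or 1 of 4 higher when such cells were left out of both libraries. Defa30, Defa17 and Defa24 are Paneth cell defensins. Defa30 was at least 108-fold higher and the others by 5.60 and 3.93, and all 3 were seen in each of the 11 adult members. In adult cells without a dominant hormone the same log2 differences were 14.13, 7.90 and 8.19, so the defensin RNA moved more outside these cells than in them. Clca3b was higher by 4.98, with 1 of its 47 UMIs outside the 3 cells. Of 12 early response genes of dissociation 4 were at least 2-fold higher and 1 lower, led by Fosb at 553 against 139 CPM, and the handling of the tissues cannot be told apart from the stage.

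Olfm4, a marker of crypt base stem cells, Dmbt1 and Ifitm3 were higher in the adult by 6.96, 5.36 and 7.07, and these came from few cells. In the adult, 3 of 11 members had at least 10 UMIs of 15 genes of the G2 and M phases of the cell cycle. They were the 3 deepest, at 30409 to 51443 UMIs where the others reached 16365, and held 61.7% of the adult members' UMIs. A limit on raw UMIs favours deep cells: the 3 had 362, 953 and 3605 CPM of these genes, and another adult member had 450 CPM from 2 UMIs. They gave 236 of 240 Olfm4 UMIs, 87 of 88 of Dmbt1, 83 of 85 of Ifitm3 and 66 of 66 of Ube2c. At E17.5, 8 members met this limit with 22.1% of UMIs, and in the irradiated adult none did. Scrublet's highest doublet scores removed 6 members at E17.5 and none of the 3 cells or the other adult and irradiated members; whether a cell holds RNA of a neighbour was not tested. Without these cells the adult had 1227 CPM of Pyy, 6942 of Chgb and 58748 of Ghrl in place of 563, 4477 and 26125. Over E17.5 there were then 247 of 3488 genes higher (7.08%) and 881 lower (25.3%).

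Irradiated adult over adult asks what irradiation goes with in this class. Among 1765 genes that reached 30 UMIs, 206 (11.7%) were at least 2-fold higher in irradiated members and 155 (8.78%) lower, with a median of 0.06. Without the 3 adult cells with at least 10 G2/M UMIs, 198 of 1697 (11.7%) were higher and 51 (3.01%) lower, with a median of 0.16. With the TMM factors of edgeR as library scaling, 67.7% of the genes past 2-fold were higher, against 57.1% here. Olfm4 and Dmbt1 had no irradiated UMI and were at least 148-fold and 54.4-fold lower, Pclaf and Cldn15 at least 26.0-fold and 18.5-fold. Ube2c, a mitotic ubiquitin enzyme, was lower by -6.48, Ifitm3 by -6.05, Slc12a2 by -5.93, Jaml by -5.52, Mgst1 by -5.39 and Hmgb2 by -4.38. These 10 genes rest largely on the 3 cells. Outside them the adult members had no UMI of Cldn15, Slc12a2, Jaml, Mgst1 or Ube2c, 1 each of Pclaf and Dmbt1, 2 of Ifitm3, 4 of Olfm4 and 10 of Hmgb2. Hmgb2, a chromatin protein, was at -2.23 without the 3 cells.

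Pyy was among the 10 highest genes. Its log2 difference was 4.01 (interval 3.74 to 4.29) with all members and 2.88 without the 3 cells. In the other hormone-dominant cells Pyy differed by 0.78 and in cells without a dominant hormone by -2.22, the opposite direction. Granins and processing enzymes had 7 of 10 genes at least 2-fold higher and none lower, with a median of 1.18. Chga was higher by 2.72, Chgb by 2.42 and Cpe by 1.49. In single cells, 22 of 27 irradiated members lay above the highest adult value of Chga, 18 of Cpe and 7 of Chgb. Without the 3 cells only 2 of 10 genes passed 2-fold, the median was 0.37, and Chga and Chgb were at 1.73 and 1.79. Cells without a dominant hormone had Chga and Chgb higher by 1.12 and 0.99, the same direction. Scg2 and Pcsk1 were at 0.09 and -0.14 without the 3 cells.

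**Figure D3:**
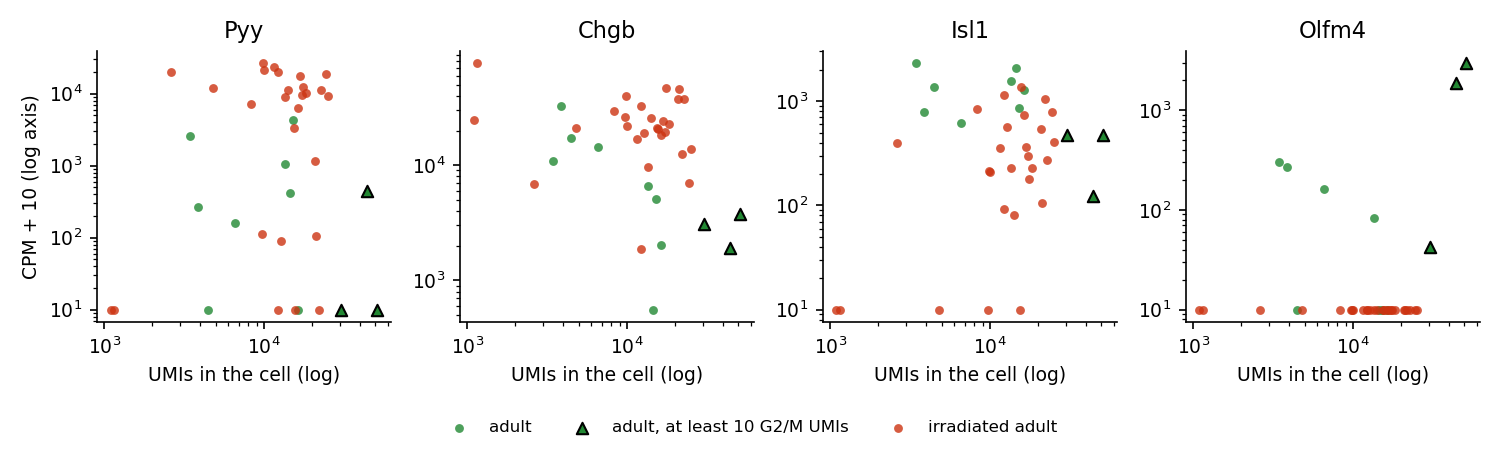
CPM plus 10 (log axis) of Pyy, Chgb, Isl1 and Olfm4 against the UMIs in the cell (log axis) for the 11 adult (green) and 27 irradiated adult (red) Gcg-dominant cells; triangles are the 3 adult cells with at least 10 G2/M UMIs. These 3 are the deepest cells and 2 of them carry nearly all adult Olfm4, and points on the lower edge of a panel have no UMI.

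Transcription factors had 1 of 10 genes at least 2-fold higher and none lower (median 0.39), and without the 3 cells none higher and 2 lower (median -0.50). Isl1 was among the lower genes (-1.64). With all members Isl1 was at 730 CPM in adult members and 433 in irradiated members, a log2 difference of -0.75. In 8 of 27 irradiated members Isl1 lay below the lowest adult member, which was 1 of the 3 cells, with 44102 UMIs and 113 CPM of Isl1. The 8 include cells of 1095, 1156 and 4811 UMIs without an Isl1 UMI. In cells that shallow a single UMI would already lie above 113 CPM. Of 5 receptors 1 was at least 2-fold higher, the peptide transporter Slc15a1 at 1.89, and without the 3 cells none was (Slc15a1 0.89). Of 6 excitability genes 3 were at least 2-fold higher, and without the 3 cells none was. Cacna1a, a calcium channel subunit, was at 220 and 486 CPM, and its log2 difference came to 0.25 without the 3 cells.

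The p53 targets are the textbook transcripts of DNA damage. Of 7 measured, 3 were at least 2-fold higher and none lower, with a median of 0.98 against 0.06 for all genes. Without the 3 cells 4 were higher and 1 lower, with a median of 1.20. Phlda3, an inhibitor of Akt signalling, fell just short of the limit of 30 with 29 UMIs in the irradiated members, at 76.6 CPM in 14 of 27 cells, and had none in the adult. The genes at least 2-fold higher were Trp53inp1 at 24.5 and 182 CPM, Ccng1, cyclin G1, at 29.4 and 124, and Gdf15, a stress cytokine, at 53.9 and 132. Without the 3 cells Gdf15 was at 0.78 (interval -0.44 to 2.30) and no longer past 2-fold. Bax and Perp, both death genes, then passed it at 1.20 (0.32 to 2.25) and 1.29 (-0.14 to 3.24). The adult then had 4 UMIs of Perp, 3 of Ccng1 (interval 0.06 to 4.02) and 5 of Trp53inp1 (0.22 to 3.18). Cdkn1a, the cell cycle inhibitor p21, was at 338 and 531 CPM, a log2 difference of 0.65 that came to 0.13 (interval -0.38 to 0.67) without the 3 cells. Btg2 was on the other side at 1102 and 874 CPM. Without the 3 cells the adult had 1854 CPM of Btg2. Its log2 difference was then -1.08 (interval -1.37 to -0.79), which makes it the 1 lower gene of that setting. In cells without a dominant hormone Cdkn1a went from 232 to 741 CPM and Phlda3 from 1.95 to 105. Whether Cdkn1a differed less in members was not tested.

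Secretory genes of other lineages were higher as well. All 4 measured goblet genes were at least 2-fold higher (median 2.50, or 1.84 with 2 of 4 without the 3 cells). Agr2 was higher by 3.33, and Zg16, a lectin of mucus granules, had 43 UMIs in 18 of 27 irradiated members and none in the adult, at least 7.73-fold. In cells without a dominant hormone Zg16 was higher by 7.70 and Agr2 by 1.49; the goblet list reached 29076 CPM in other irradiated cells and 4523 in members, and the part of free RNA was not tested. Enterochromaffin genes had 4 of 5 higher (median 2.38, or 1.02 with 3 of 5 without the cells). Tac1, the substance P gene, was higher by 6.54 with a UMI in 19 of 27 members, and by 3.30 in cells without a dominant hormone. Tph1, the serotonin enzyme, was at 92.5 CPM with 62.9% from 1 cell. Reg4, a lectin of secretory cells, was higher by 6.46 with 81.0% from 1 cell and Afp, a fetal albumin, at least 6.83-fold with 63.2% from 1 cell. Vim, an intermediate filament, and Lect2 were higher by 3.95 and 3.94. Vim was the only one of 5 mesenchyme genes with a UMI.

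With all members, the programs below had medians from 0.02 to 0.28, against 0.06 for all genes. Early response genes had 1 of 12 at least 2-fold higher, Nr4a1, and none lower, with a median of 0.06. Without the 3 cells none was past 2-fold, with 2 of 12 higher and a median of -0.58, against 0.16 for all genes. The interferon list had 0 of 5 past 2-fold with a median of 0.02, and 1 of 5 without the 3 cells, B2m. Of 7 genes of the unfolded protein and amino acid response 3 were higher, among them Herpud1 (98.0 and 312 CPM) and Ddit3 (34.3 and 116 CPM), and 1 without the 3 cells.

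**Figure D4:**
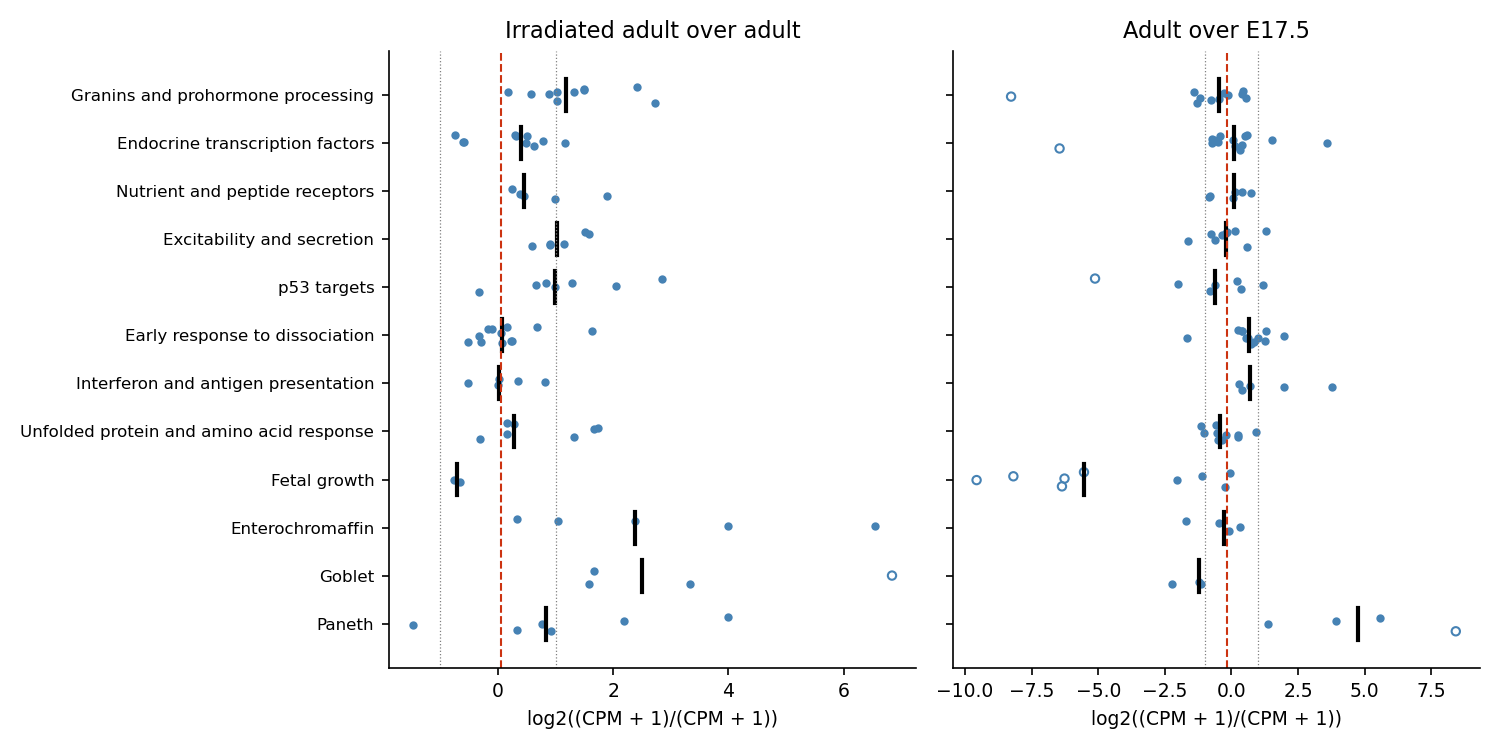
Difference between libraries on the log2((CPM + 1)/(CPM + 1)) scale for each gene of 12 lists that reached 30 UMIs in either library, irradiated adult over adult (left) and adult over E17.5 (right), in Gcg-dominant cells; points are genes, open points had no UMI in 1 library, black bars are list medians, dotted lines 2-fold and the red dashed line the median of all genes tested. Granins lie right of the dashed line on the left panel (median 1.18) and fetal growth genes far left on the right panel (median -5.53).

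Compared with their nearest neighbours, Gcg-dominant cells differed from Cck-dominant cells of the same library in few genes that held in all libraries. Cck-dominant cells numbered 340, 267 and 726, with median depths of 9788, 13645 and 13942 UMIs. Of 7617 genes with enough UMIs in every library, 12 (0.158%) were at least 2-fold higher in Gcg-dominant cells in all 3 and 104 (1.37%) lower. The genes of the rule were left in these counts. For Gcg and Cck the choice of cells set the direction, so their part in the counts is a description and supports nothing. Apart from the rule genes, Gpr119 led the higher genes, at 65.4 against 24.5 CPM at E17.5, 68.6 against 27.4 in the adult and 89.8 against 31.2 in the irradiated adult. Sphkap, an anchor of protein kinase A, followed the same order at 143 against 59.0, 152 against 65.1 and 225 against 67.7. Prodh, Zfp503, Mum1l1, Kit, Edn1, Tyms, Acly and Prlr were the others named, several of them with under 10 UMIs in the adult. All 10 adult UMIs of Edn1 came from 1 cell, as did 68.2% of adult Tyms and 62.5% of adult Kit.

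Larger differences were found among the genes low in Gcg-dominant cells. Habp2, a plasma protease, had no UMI in any member and was at 97.3, 91.9 and 103 CPM in Cck-dominant cells. Pzp, a protease inhibitor, was at 0, 0 and 2.64 CPM against 113, 376 and 388. Crp, C-reactive protein, was at 5.27, 0 and 0 against 101, 103 and 84.4, and Ambp, a bikunin precursor, at 53.8, 9.80 and 84.5 against 1317, 547 and 694. Rgs2, a brake on G protein signalling, was at 10.5, 73.5 and 52.8 CPM against 346, 650 and 678. Akr1b7, Tlr5, Parvb, Prrx2 and Col6a5 were lower too, some of them near the floor. At 3 counts the floor of adult members was 14.7 CPM. Adult Cck-dominant cells had 16.6 CPM of Akr1b7 and 8.92 of Parvb. Several of these, Habp2, Pzp, Crp and Ambp, encode proteins that the liver secretes into plasma.

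Taken library by library, 3.02% of genes were at least 2-fold higher in Gcg-dominant than in Cck-dominant cells at E17.5 and 5.9% lower. Of 9 distal genes (Insl5 and regulators of the distal gut such as Osr2 and Hox genes), 4 had enough UMIs to be measured and 4 of 4 were higher, with a median log2 difference of 2.71 against 0.05 over all genes tested. These were Insl5, Osr2, Hoxb8 and Hoxb7, and Osr2, Hoxb8 and Hoxb7 rest on 38, 34 and 33 UMIs in the members. Of the goblet genes, 4 of 4 measured were lower, with a median of -2.14. For the adult the shares over all genes were 9.32% higher and 15.9% lower, and 6 of 8 Paneth genes and 3 of 4 measured goblet genes were lower. For the irradiated adult the shares were 3.61% and 12.9%, and 7 of 8 Paneth genes and 7 of 7 goblet genes were lower. In that library 3 of 19 measured endocrine transcription factors were at least 2-fold higher and 4 lower, 1 of 12 receptors was higher and 3 lower, and 0 of 10 granin and processing genes passed 2-fold.

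The 148, 88 and 60 Nts-dominant cells were shallower in the adult libraries (median 2092 and 2690 UMIs). Against them, 9 of 1173 genes (0.767%) were higher in all 3 libraries and 57 (4.86%) lower, again with the rule genes left in. In single libraries the shares were 5.08% higher and 8.26% lower at E17.5, 34.6% and 24.3% for the adult library, and 13.5% and 11.1% for the irradiated one. Sphkap was again higher, by 3.61, 2.56 and 2.51 on the log2 scale. Ccnd2, cyclin D2, was at 215, 191 and 325 CPM against 54.9, 41.5 and 94.4. C2cd4b, Tubb5, Hspd1, Ssr2, Tuba1b, Ctsz and Pdia6 were also higher, and Npm1 reached 0.96 at E17.5. Adgrd1, an adhesion receptor, was at 0, 4.90 and 0 CPM against 86.0, 966 and 406, and Nt5e, the ectoenzyme CD73, at 6.33, 0 and 18.5 against 171, 493 and 280. Ambp was low here too, with Fcgbp, Prss30, Tbx3, Rflna, Gsdma, Gpx3 and Ret. Ambp is therefore low against both neighbours and Sphkap high against both.

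**Figure D5:**
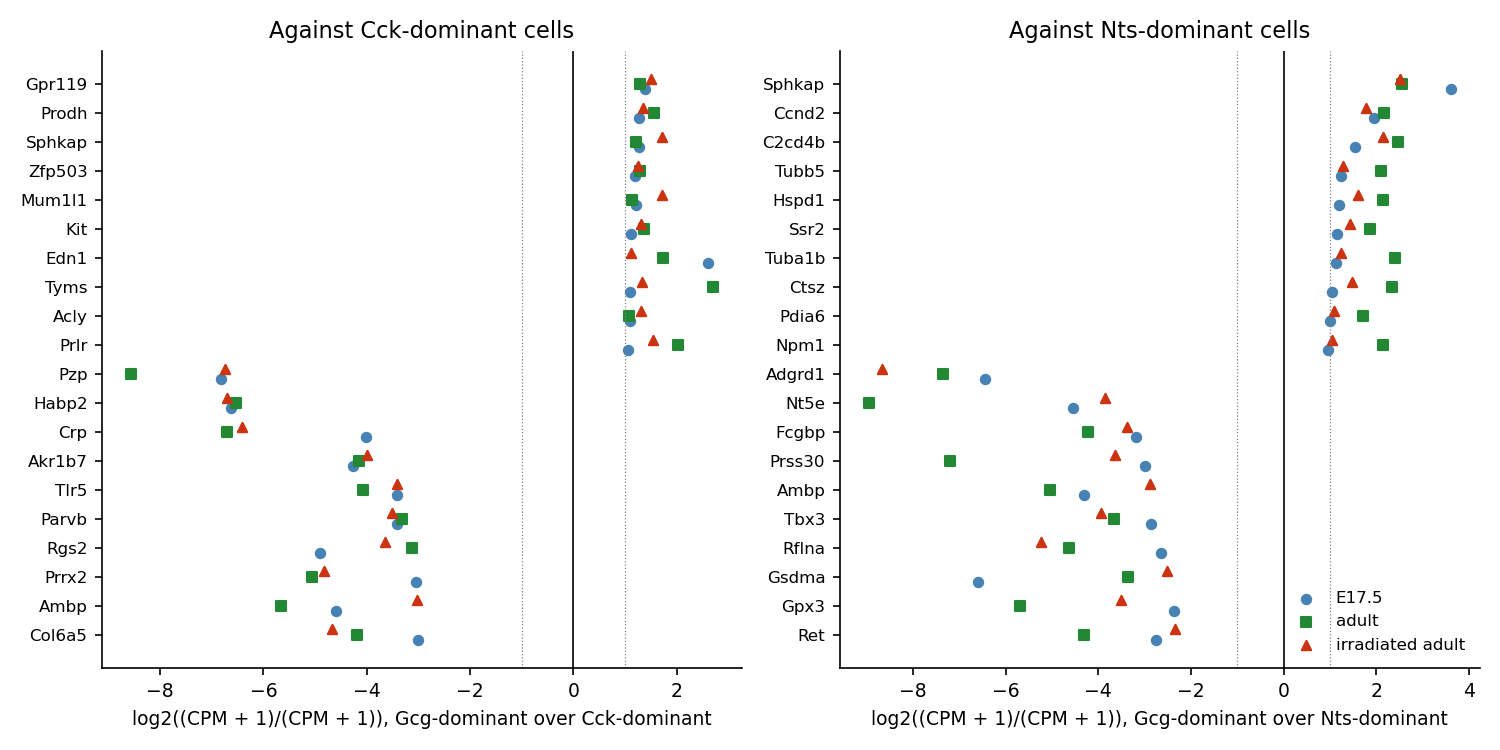
Difference on the log2((CPM + 1)/(CPM + 1)) scale between Gcg-dominant cells and Cck-dominant (left) or Nts-dominant cells (right) of the same library, for the 10 genes that were most evenly higher and lower; symbols are the E17.5, adult and irradiated adult libraries and dotted lines mark 2-fold. Gpr119 lies between 1.30 and 1.50 against Cck-dominant cells, and Sphkap lies between 2.51 and 3.61 against Nts-dominant cells.

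Genes whose share of UMIs followed that of Gcg across the cells of a library with at least 1% of UMIs in the 6 hormone genes give a further description. The points share depth and library, and cells are not independent samples. At E17.5 the highest Spearman coefficients over 1095 cells were Slc38a5 (0.41), Etv1 (0.36), Krt20 (0.33), Slc14a2 (0.33) and Fars2 (0.32). In the adult, over 1953 cells, they were Etv1 and Krt20 (0.31 each), Kcnk16 and Bcam (0.29 each) and Agr3 (0.27). In the irradiated adult, over 1820 cells, Chgb (0.40), Pyy (0.36), Fars2 (0.35), Serpinb1a (0.32) and Etv1 (0.31) led. Etv1 was the only gene among the 5 highest in all 3 libraries.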

How the data were processed

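Members and gene lists were chosen with earlier results of these data known. For each library the deposited files hold raw UMI counts per gene and cell barcode, made by the authors with Cell Ranger 3.1.0 on mm10, per the submitters' processing notes; the annotation and the rule that selected barcodes are not given in the sources used here. The E17.5 library had 77677622 counts from 5232 barcodes, the adult library 38648331 from 6287 and the irradiated library 50761353 from 5996.

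UMIs were summed over the cells of a class and divided by all their UMIs to give CPM, with exact Poisson 95% intervals; shares carry Clopper-Pearson intervals, ratios exact binomial ones. Intervals and floors (3 counts) cover counting error only. Groups came from the labels, and ratios used a pseudocount of 1 CPM and genes with at least 30 UMIs in either set. Doublets were not removed: Scrublet (scanpy 1.11.5) by its own threshold called 0.0573%, 0.0318% and 0.0167% of barcodes, which shows it did not work here, and removing its highest scores (0.8% per 1000 barcodes) was an alternative. Named genes are the 10 highest and 10 lowest per comparison, ranked by the interval bound nearest to 0 (between cell classes, by the smallest difference over the 3 libraries), and the members of 26 lists, of which some are not reported here. Positions are from GENCODE M21. Alternatives were other cell filters, Gcg limits, pseudocounts, UMI minimums, TMM scaling (edgeR 4.0.16, R 4.3.3), scaling without abundant genes, per-cell means and, chosen after the data were seen, leaving out cells with at least 10 G2/M UMIs, gut-marked E17.5 cells only, thinning to 2000 UMIs and leaving out Slc38a5. Python 3.11.15, numpy 2.4.6, scipy 1.17.1 and pandas 2.3.3 were used, and the ratio code was tested on simulated data.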

Additional observations from a re-analysis of the deposited data

Results flagged for a closer look

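The E12.5 library, which enters no comparison above, held 3257 Gcg UMIs in its 4226 kept cells. Of these, 2748 (84.4%) lay in 3 cells that met the rule, 0.0710% of the library, with Gcg at 2.22 to 3.32% of their UMIs. The other 4223 cells had 5.72 CPM, with a UMI in 71 of them. All 3 cells had UMIs of the alpha cell genes Irx1, Irx2 and Slc38a5 and of Pcsk2 and Ttr. They also had Pyy, at 7658 to 16484 CPM. Of the gut identity genes, Cdx1, Lgals4 and Cdh17 had no UMI in them and Cdx2 had 1. The signal stood out because no comparison uses this library and it lies far above a count of 3.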

How the results depend on the processing

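No paired analysis was possible because the labels tie no animal and no replicate number to more than 1 library. The share of Gcg-dominant cells in the irradiated adult, 0.848%, was 0.500% over every barcode and 1.28% under the stricter cell filter. Pyy in E17.5 members was 20446 CPM with Gcg at 1% or more, 23687 at 5% or more, 22260 with no insulin limit and 22309 without cells of at least 10 G2/M UMIs, and adult Pyy was 864 CPM at 5% or more and 1227 without those cells. Counts past 2-fold moved with the UMI minimum: from 206 higher and 155 lower (irradiated adult over adult) to 811 and 561 at 10 UMIs and 50 and 45 at 100, and from 168 and 607 (adult over E17.5) to 626 and 1515, and 34 and 168. Thinning gave 24 and 4, and 43 and 229, with far fewer genes tested. The lower count for irradiation was 42 with Gcg at 5% or more and 51 without the G2/M cells. Adult over E17.5 had 335 higher and 914 lower when the CPM of single cells were averaged, and 261 higher when abundant genes were left out of the totals. Against Cck-dominant cells 3 were higher and 55 lower at 100 UMIs, and 23 were higher without abundant genes; against Nts-dominant cells these were 1, 16 and 14. Alpha-marked cells numbered 10 without Slc38a5. Among differences past 2-fold that kept at least 10 UMIs, directions turned for Tmem27 (-0.047 without the G2/M cells), Gip (-0.28) and Cacna1a (-0.032, both thinned) after irradiation, and between stages for Mki67 (-3.97 with Gcg at 5%), Ddit3 (0.16) and Ube2c (-4.59, both without the G2/M cells), Pcsk1n (0.075) and Tmem27 (0.69, both gut-marked only). Without the G2/M cells, and with differences under 2-fold and genes of few UMIs included, 37 of 114 named or listed genes changed sign after irradiation, 9 with an interval clear of 0, among them Pigr (from -0.99 to 1.89), Etv1 (from 0.31 to -0.69), Ghrl (from 0.43 to -0.74) and Gcg (from 0.29 to -0.56). Between stages 30 of 149 did. TMM scaling moved the median of all genes from 0.06 to 0.19 and from -0.15 to -0.27, and scaling without abundant genes the latter to -0.02. Of values for single genes and lists, 3864 stayed within their limit and 577 moved past it. The limit was the counting interval for a gene and a fixed log2 distance for a list median. In each of the 7 settings with fewer cells or UMIs, 4 to 46 genes had under 10 UMIs and gave no value. The cause of these shifts was not tested beyond the numbers of cells, genes and UMIs that each setting leaves. The 11 adult cells limit every comparison with that library.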
